A study of Mus musculus with 8 samples.

Results

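The genes described here are those of apolipoproteins and of lipoprotein assembly in mouse liver, measured on Illumina bead arrays. The list names 10 genes, namely Apoa1, Apoa2, Apoa4, Apoa5, Apob, Apoc2, Apoc3, Apoe, Mttp and Lcat. Probes were taken by their symbol in the platform annotation, which gave 11 probes for 9 of the 10 genes, among 25697 probes and 16593 named genes on the array. Apoc2 and Lcat had 2 probes each and the other genes 1. No probe in the annotation used carried the symbol Apob, so the gene of the main structural protein of very low density lipoprotein was not analysed here. All 11 probes passed the filter on low signals, which kept 12755 probes.

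The arrays came from the livers of 8 C57Bl6/Ntac mice, 4 controls (mice 641, 658, 661 and 663) and 4 mice without Mfn1 in the liver (Mfn1 LKO, mice 637, 638, 651 and 701). All 8 had been fed a high fat diet for 8 weeks and fasted for 6 hours, so no group on another diet or with food was available for comparison. Every title names AlbCre, a Cre recombinase driven by the albumin promoter and thus active in hepatocytes, while the control genotype is given as Mfn1 wildtype, and whether the controls carried Cre is not stated. Age and sex are not stated either. Each array was a different mouse, and having only 8 arrays bounds how precise any value can be.

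The median deposited signal of the arrays lay between 96.4 and 103.9. The 2 brighter probes of Mfn1, the targeted gene, fell by 1.58 and 1.54 on the log2 scale in the Mfn1 LKO livers (limma, adjusted p = 6.83e-07 and 2.27e-06), with all 4 Mfn1 LKO livers below all 4 controls, and the remaining probe, which was too dim to be kept, gave 0.012. Secreted hepatocyte proteins were among the brightest probes, such as Ttr with signals between 14956 and 18637, while the single albumin probe was dim, between 98.3 and 144.7. Probes of the enterocyte genes Fabp2, Sis, Vil1 and Cdx2 stayed between 85.6 and 101.3 in all 8 arrays and were not kept. Of the 8 enterocyte markers 3 were kept, with median signals of 413.7 for Anpep, 314.8 for Lgals4 and 104.1 for Cdx1. These single markers were named after their values were seen. Of 22 macrophage markers 17 were kept, and all 17 had a positive log2 fold change, against 44.6% of all 8815 genes. Their median was 0.26, and it lay between 0.22 and 0.34 under 6 other scalings. None of the 17 had an adjusted p under 0.05 (limma, lowest 0.265). At an unadjusted p under 0.05 there were 7, against 10.8% of all genes. The mean macrophage score, a log2 level relative to the mean of the 8 arrays, ranged from -0.23 to -0.0088 in controls and from -0.12 to 0.39 in Mfn1 LKO livers.

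Lipoproteins carry triglyceride and cholesterol in plasma, and the liver makes both very low density lipoprotein and most of the nascent high density lipoprotein. In the endoplasmic reticulum the microsomal triglyceride transfer protein, encoded by Mttp, loads lipid onto apolipoprotein B as it is made. Exchangeable apolipoproteins on the particle surface then set which enzymes and receptors act on it. Apolipoprotein C-II activates lipoprotein lipase, apolipoprotein C-III inhibits triglyceride clearance, apolipoprotein E is a ligand for receptors of the liver, and apolipoprotein A-I activates lecithin-cholesterol acyltransferase, the product of Lcat. The 4 genes Apoa1, Apoc3, Apoa4 and Apoa5 are neighbours in this order on mouse chromosome 9, and Apoc2 and Apoe lie in a second cluster with Apoc4 and Apoc1 on chromosome 7 (RefSeq annotation of GRCm38.p6).

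The question of the comparison was whether deletion of liver Mfn1 in mice on a high fat diet went with a different level of these transcripts. None of the 11 probes passed the test (limma with Benjamini-Hochberg adjustment over 12755 probes), where 0.0157% of all probes passed, and the lowest adjusted p among them was 0.754. At an unadjusted p under 0.05 there were 0 of the 11, against 10.7% of all probes. In no member did the 4 Mfn1 LKO livers lie wholly above or below the 4 controls, against 6.15% of all probes. The median log2 fold change, Mfn1 LKO over control, was 0.0079 over the 11 probes and -0.012 over all probes, with 7 of the 11 positive and 4 negative. Leaving Apoa4 aside, every 95% interval of this fit lay within 0.324 of 0 on the log2 scale. On this signal scale that is a change of at most 1.2515-fold in either direction. Intervals under other settings or with a mouse left out are not given, and this bound does not cover them.

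**Figure D1:**
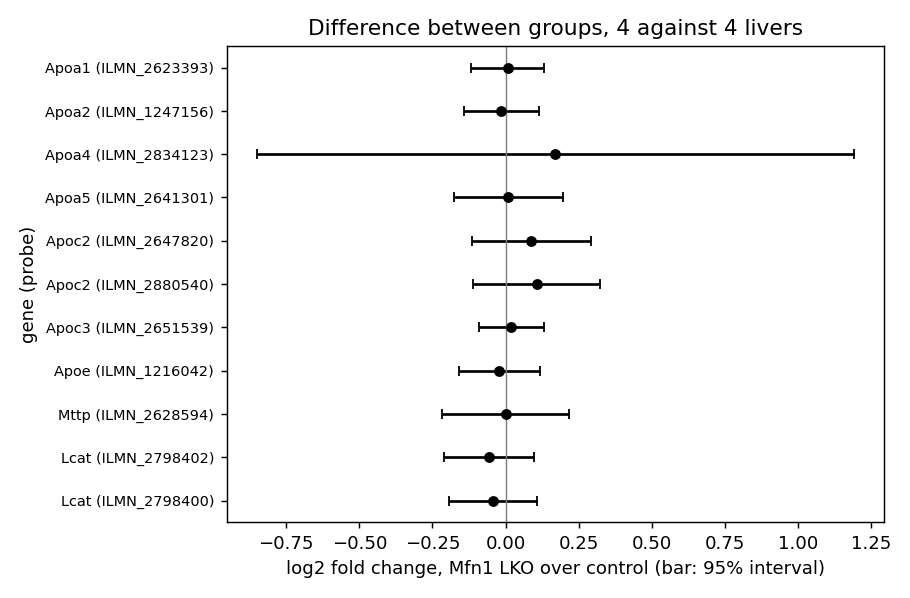
Log2 fold change of each probe (points, Mfn1 LKO over control, 4 livers each) with its 95% interval from limma (bars). All 11 intervals include 0, and that of Apoa4, from -0.85 to 1.19, is the widest.

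Apoa4 encodes a lipid-binding apolipoprotein of triglyceride-rich and high density particles. Its deposited signal was 2759, 3223, 4605 and 8708 in controls 641, 658, 661 and 663 against 2038, 6431, 11851 and 3499 in Mfn1 LKO mice 637, 638, 651 and 701. The lowest and the highest of the 8 livers were both Mfn1 LKO, a 5.81-fold range, and the groups overlapped throughout. The normalized log2 level averaged 12.08 ± 0.58 in the control group and 12.25 ± 1.02 in the Mfn1 LKO group (SD, n = 4 each). The log2 fold change was 0.17 (SE 0.46, 95% interval -0.85 to 1.19, limma adjusted p = 0.935), so a level from 0.555-fold to 2.28-fold that of controls lay within the interval. Without Mfn1 LKO mouse 637 the difference was 0.57, without mouse 651 it was -0.24 and without control 641 it was -0.048. The SD within groups, 0.83 on the log2 scale, was higher than that of 99.9% of the probes kept, and 17 of the 12755 had a larger one.

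**Figure D2:**
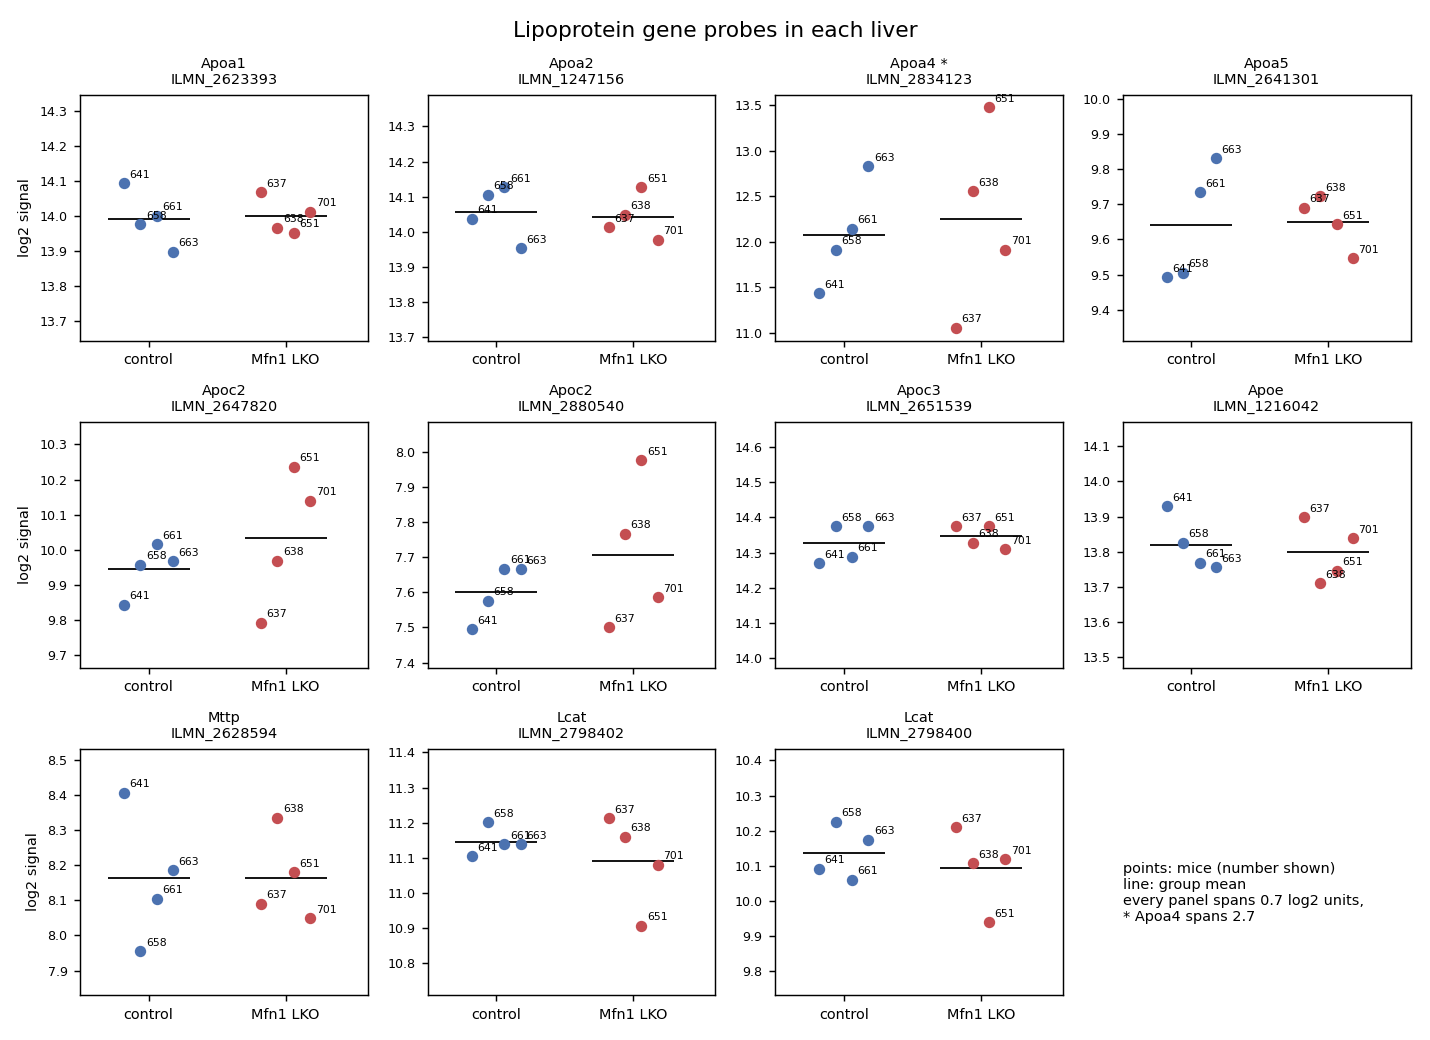
Normalized log2 signal of the 11 probes in each of 8 livers, with the mouse number beside each point and a line at each group mean. Each panel spans the same 0.7 log2 units except Apoa4, marked with an asterisk, whose livers range from 11.05 to 13.48.

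The other genes of the chromosome 9 cluster had narrower signal ranges. Deposited signals spanned 1.21-fold for Apoa1, 1.21-fold for Apoc3 and 1.72-fold for Apoa5 over the 8 livers. After normalization the SD within groups was 0.068 for Apoa1, 0.047 for Apoc3 and 0.13 for Apoa5. The Apoa1 and Apoc3 probes lay at the top of the signal range, where the quantile step gives Apoc3 the same value on 4 arrays, so their SDs cannot be set directly against that of Apoa4. Apoa5, which encodes a scarce plasma protein that promotes triglyceride clearance, had signals of 724, 649, 881 and 1118 in controls 641, 658, 661 and 663. In Mfn1 LKO mice 637, 638, 651 and 701 they were 785, 958, 952 and 692. The highest and the lowest values both belonged to controls, and the log2 fold change was 0.0094 (SE 0.083, 95% interval -0.18 to 0.20, limma adjusted p = 0.984). Its sign turned when arrays were scaled to a common 75th percentile (-0.0049).

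The upstream sequences of 3 genes of the chromosome 9 cluster are shown because Apoa4 was the most variable member between livers and lies beside genes of narrower signal range. RefSeq windows were at hand for 9 of the 10 genes, 13 windows in all, with none for Apoc3 in the table used. Each run gives the 250 bases before an annotated start (GRCm38.p6, 5′ to 3′ on the gene's strand), and capitals mark the letters TATAAA where they occur.
Apoa4, chr9:46240594-46240843, + strand: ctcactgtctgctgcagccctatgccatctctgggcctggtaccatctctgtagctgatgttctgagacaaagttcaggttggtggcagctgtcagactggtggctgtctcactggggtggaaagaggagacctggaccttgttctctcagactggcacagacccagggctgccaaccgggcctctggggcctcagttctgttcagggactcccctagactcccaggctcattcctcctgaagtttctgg
Apoa1, chr9:46228380-46228629, + strand: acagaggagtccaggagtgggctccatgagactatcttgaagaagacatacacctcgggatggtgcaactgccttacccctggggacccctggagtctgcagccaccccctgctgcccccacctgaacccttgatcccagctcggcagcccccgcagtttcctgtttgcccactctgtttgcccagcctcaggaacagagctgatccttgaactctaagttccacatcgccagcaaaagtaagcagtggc
Apoa5, chr9:46268358-46268607, + strand: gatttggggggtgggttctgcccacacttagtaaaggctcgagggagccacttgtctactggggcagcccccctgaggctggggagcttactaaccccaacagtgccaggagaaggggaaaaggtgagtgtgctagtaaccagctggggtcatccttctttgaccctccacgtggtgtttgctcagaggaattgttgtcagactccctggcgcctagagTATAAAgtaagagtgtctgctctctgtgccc
Neither the Apoa4 nor the Apoa1 window held TATAAA, and the Apoa5 window held it with its first base at position -31. Searched on both strands in windows of 300 bases (250 before and 50 after each start), TATAAA was present in 5 of the 13 windows, those of Apoa2, Apoa5 (both overlapping windows), Apob and Apoe, and in 13.6% of all 32851 windows. The letters CAAAGTCCA, a core of sites bound by the hepatocyte factor HNF4A, were in 0 of the 13 and in 0.475% of all windows, and a direct repeat of AGGTCA with 1 base between its copies in 0 and 0.0396%. These matches describe the letters alone.

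Across the 8 arrays, the profiles nearest to that of Apoa4 were those of Tubb2b, a tubulin subunit, Gsta1, a glutathione transferase, Anxa5, a phospholipid-binding annexin, Ly6d, a surface antigen, and Hspb1, a small heat shock protein. Likeness was the root mean square difference between log2 profiles, each centred on its own mean, among 11992 probes of other genes, and it was 0.24, 0.31, 0.33, 0.37 and 0.38 in this order. All 5 were highest in Mfn1 LKO mouse 651, and all 5 were lowest in Mfn1 LKO mouse 637, as Apoa4 was. Deposited signals ranged from 296.0 to 1266 for Tubb2b and from 252.5 to 1899 for Gsta1. Those of Ly6d ranged from 97.9 to 374.5, and its lowest, in mouse 637, was near the median of the arrays. The 5 genes were picked for this likeness, so their closeness to Apoa4 is a description of these 8 livers. Their log2 fold changes between the groups lay between 0.039 and 0.29, with adjusted p from 0.885 to 0.975 (limma).

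**Figure D3:**
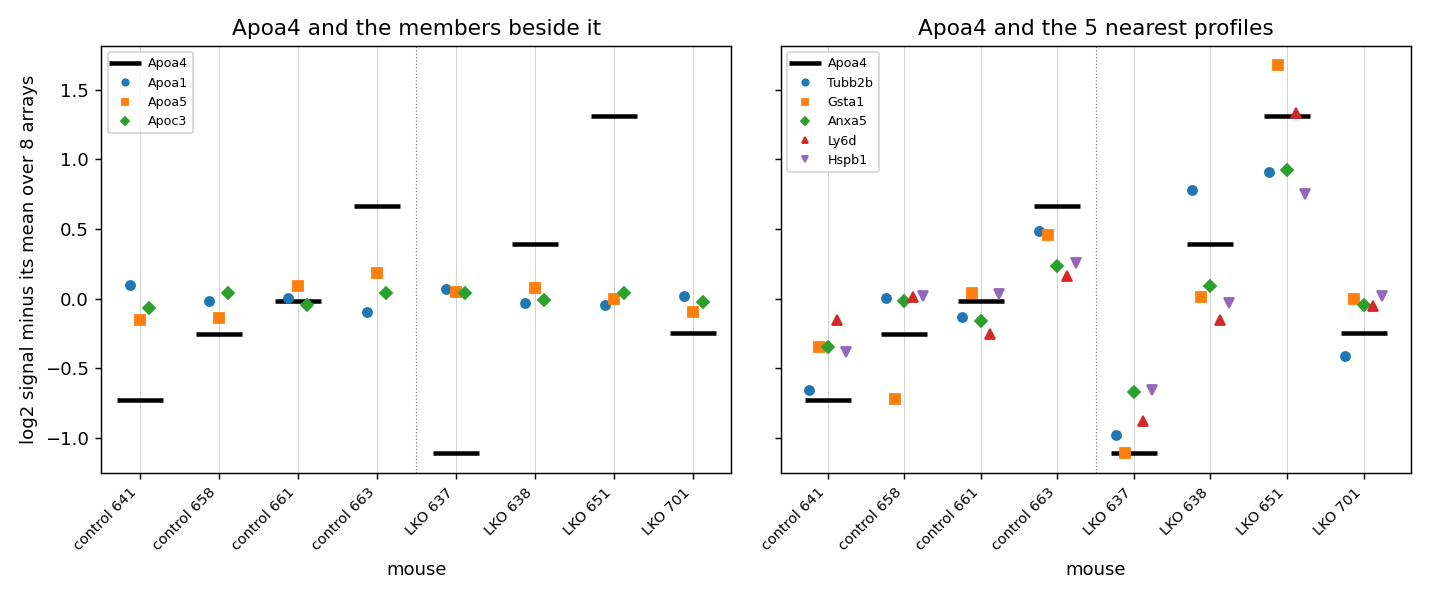
Log2 signal minus its mean over 8 arrays in each liver, for Apoa4 (bars) with its 3 cluster neighbours (left) and with the 5 genes of nearest profile (right). Apoa1, Apoc3 and Apoa5 stay near 0 in all livers, while the 5 genes on the right are lowest in mouse 637 and highest in mouse 651.

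Apoa1, Apoa2, Apoc3 and Apoe lay near the top of the signal range. Apoc3 was the brightest probe of the array in 4 of 8 livers and never below rank 5. Apoa2 ranked between 9 and 22, Apoa1 between 11 and 27, and Apoe between 24 and 43, of 25697 probes. The brightest probe of an array gave 19348 to 23468 units. Apoc3 reached 94.4% to 100% of that value, Apoa2 74.8% to 85.4%, Apoa1 73.9% to 80.4% and Apoe 63.7% to 72.6%. Probes were also ranked by mean signal among all 25697, and those kept were used. The median SD within groups was 0.057 for the 25 brightest, 0.10 for ranks 26 to 100 and 0.11 for ranks 101 to 1000, on the log2 scale. For ranks 1001 to 12755 it was 0.094. The deposited log2 values gave 0.057, 0.10, 0.11 and 0.071 in this order, so the value for dim probes depended on the processing. Apoe was not among the 25 brightest by mean signal. Whether transcript differences are compressed at this end of the scale was not tested.

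**Figure D4:**
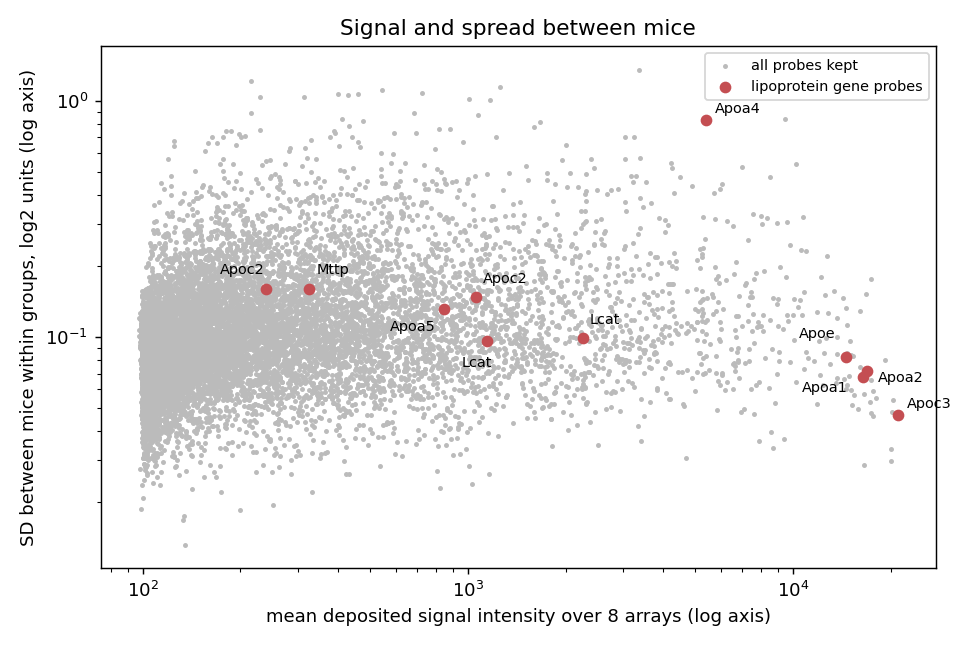
Mean deposited signal over 8 arrays (log axis) against the SD between mice within groups (log2 units, log axis) for the 12755 probes kept (grey) and the 11 lipoprotein gene probes (red). Apoc3, Apoa1, Apoa2 and Apoe sit at the bright end with SDs between 0.047 and 0.083, and Apoa4 sits at 0.83.

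For Apoc3 the quantile step adds a limit of its own, since it gives the brightest probe of every array the same value. Deposited signals were 21167, 19348, 19398 and 22161 in controls 641, 658, 661 and 663 against 23468, 21133, 20366 and 21243 in Mfn1 LKO mice 637, 638, 651 and 701. The 4 arrays where Apoc3 ranked first, controls 658 and 663 and Mfn1 LKO mice 637 and 651, therefore all read 14.38 on the log2 scale, although their signals ran from 19348 to 23468. The log2 fold change was 0.020 (SE 0.049, 95% interval -0.090 to 0.13, limma adjusted p = 0.926). Scaling that does not fix the top value gave 0.063 with a common median, 0.040 with a common 75th percentile and 0.078 with cyclic loess, none of them past the test.

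Apoa1 and Apoa2 encode the main proteins of high density lipoprotein. Apoa1 signals were 18013, 14967, 15480 and 16370 in controls 641, 658, 661 and 663 against 18040, 16482, 15267 and 16767 in Mfn1 LKO mice 637, 638, 651 and 701. Control 641 and Mfn1 LKO mouse 637 were the highest of their groups, and the log2 fold change was 0.0079 (SE 0.056, 95% interval -0.12 to 0.13, limma adjusted p = 0.979). Apoa2 signals were 17559, 16514, 16842 and 16874 in the same controls, and 17558, 17068, 16581 and 16546 in the same Mfn1 LKO mice. The whole range of Apoa2 was 1.06-fold before normalization, the narrowest of the 11 probes, and the log2 fold change was -0.014 (SE 0.058, 95% interval -0.14 to 0.11, limma adjusted p = 0.960; 0.0051 with cyclic loess).

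Apoe encodes a receptor ligand that hepatocytes and macrophages both make. Its signals were 16269, 13044, 13450 and 14982 in controls 641, 658, 661 and 663. In Mfn1 LKO mice 637, 638, 651 and 701 they were 16351, 13692, 13402 and 15033. The groups overlapped, with control 641 and Mfn1 LKO mouse 637 again the highest. The log2 fold change was -0.021 (SE 0.062, 95% interval -0.16 to 0.12, limma adjusted p = 0.940), and it was 0.010 with a common median and 0.025 with cyclic loess. The macrophage score was highest in mice 701 (0.39) and 651 (0.31), where Apoe read 13.84 and 13.75 on the log2 scale, beside 13.76 to 13.93 in the controls. The part of macrophages in the Apoe values was not tested. In RNA of whole liver, a change in the number of cells of a type and a change in RNA per cell cannot be told apart.

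Apoc2, the activator of lipoprotein lipase, was read by 2 probes. The brighter probe gave 918, 874, 1062 and 1229 in controls 641, 658, 661 and 663 against 843, 1138, 1394 and 1011 in Mfn1 LKO mice 637, 638, 651 and 701. The dimmer one gave 206, 204, 240 and 267 in the controls, and 200, 273, 325 and 208 in the Mfn1 LKO mice. After normalization both probes were highest in Mfn1 LKO mouse 651 (10.24 and 7.98 on the log2 scale), and both had control 641 and Mfn1 LKO mouse 637 as their lowest livers. The log2 fold changes were 0.088 (SE 0.091, 95% interval -0.12 to 0.29, limma adjusted p = 0.787) and 0.11 (SE 0.097, 95% interval -0.11 to 0.32, limma adjusted p = 0.754). These were the 2 smallest p-values among the members. Without mouse 651 they were 0.021 and 0.017, and without mouse 637 they were 0.17 and 0.18, none past the test. The macrophage score was 0.31 in mouse 651 and highest, 0.39, in mouse 701, where the 2 probes read 10.14 and 7.59 on the log2 scale. The part of macrophages in these values was not tested.

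Mttp, the gene of the lipid transfer protein of particle assembly, had a single probe. Its signals were 359, 252, 311 and 374 in controls 641, 658, 661 and 663 against 278, 389, 368 and 271 in Mfn1 LKO mice 637, 638, 651 and 701. The controls spanned the Mfn1 LKO livers on the normalized scale. Group means were 8.16 ± 0.19 and 8.16 ± 0.13 (SD, n = 4 each), a log2 fold change of 0.00067 (SE 0.098, 95% interval -0.22 to 0.22, limma adjusted p = 0.998). Its sign turned with a common 75th percentile (-0.020).

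Lcat encodes the plasma enzyme that esterifies cholesterol on high density particles. Its brighter probe gave 2176, 2025, 2246 and 2717 in controls 641, 658, 661 and 663 against 2279, 2517, 2137 and 1943 in Mfn1 LKO mice 637, 638, 651 and 701. Its other probe gave 1081, 1032, 1093 and 1410 in the controls, and 1132, 1247, 1159 and 1003 in the Mfn1 LKO mice. Mouse 701 had the lowest signal by both probes. After normalization mouse 651 was lowest by both, at 10.91 and 9.94 on the log2 scale. The log2 fold changes were -0.057 (SE 0.069, 95% interval -0.21 to 0.096, limma adjusted p = 0.825) and -0.044 (SE 0.067, 95% interval -0.19 to 0.11, limma adjusted p = 0.870). Without mouse 651 they were 0.0049 and 0.0075. On the normalized scale the liver of mouse 651 thus held the highest Apoa4 and Apoc2 values and the lowest Lcat values of the 8.

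The deposited log2 values gave the same picture as the signals. They were within 0.011 of quantile normalized log2 signals without background correction, over all probes and arrays. In that table the members' log2 fold changes ran from -0.056 for the brighter Lcat probe to 0.17 for Apoa4, and the lowest adjusted p among them was 0.757 (limma).

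Other genes of the pathway were read from the brightest kept probe of each gene, and 0 genes of these lists passed the test, as against 0.0113% of 8815 genes, which was Mfn1 alone. At an unadjusted p under 0.05 there were 10.8% of all genes. Of 14 other apolipoprotein genes 11 were kept, with a median log2 fold change of 0.093, and 3 had an unadjusted p under 0.05. These were Apol9b, of the apolipoprotein L family (-0.70, adjusted p = 0.290 with limma), Apoh, also called beta-2-glycoprotein I (0.44, adjusted p = 0.312), and Apon (0.39, adjusted p = 0.465). All 4 Mfn1 LKO livers lay below all 4 controls for Apol9b, where 6.11% of all genes had groups without overlap. Apom, a high density apolipoprotein that binds sphingosine phosphate, gave -0.12. Apoc1 and Apoc4, which lie between Apoc2 and Apoe in the chromosome 7 cluster, gave -0.021 each (95% intervals -0.14 to 0.10 and -0.16 to 0.12), and a second Apoc1 probe -0.031.

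Of 25 genes of particle assembly and secretion 21 were kept, 9 with a positive and 12 with a negative log2 fold change (median -0.0092). The smallest p-values were those of Ces1g, a carboxylesterase (0.48, limma adjusted p = 0.155), Pla2g12b, a phospholipase-like protein needed for triglyceride loading in mice (-0.21, adjusted p = 0.283), Plin2, a coat protein of lipid droplets (0.28, adjusted p = 0.412), and Aadac, an esterase of the endoplasmic reticulum (0.29, adjusted p = 0.440). For Ces1g all 4 Mfn1 LKO livers lay above all 4 controls. P4hb, protein disulfide isomerase and the partner subunit of the Mttp product, gave -0.10 (95% interval -0.22 to 0.010).

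Of 16 genes that act on particles in plasma or export sterol 12 were kept, 6 positive and 6 negative. Pon3, a paraoxonase carried on high density particles, gave 0.20 (limma adjusted p = 0.337), and its further probes 0.25 and 0.091. Pla2g7, which encodes platelet-activating factor acetylhydrolase, gave 0.14 (limma adjusted p = 0.441) at a median signal of 103.6, near the median of the arrays. Pltp, the phospholipid transfer protein, gave 0.35 (adjusted p = 0.459, and 0.087 by a second probe), and Abcg8, a subunit of the sterol transporter into bile, -0.19 (0.576). Of 12 receptor genes 8 were kept, 4 positive and 4 negative. Scarb1, the high density lipoprotein receptor, gave -0.16 (adjusted p = 0.310) at a median signal of 112.7, near the median of the arrays, with its groups apart. Lrp1, a receptor of remnant particles, gave 0.28 (0.442), Lsr -0.18 (0.520) and Sdc1, a heparan sulfate proteoglycan, 0.063 (0.847, and -0.0059 and -0.021 by further probes). Macrophages make Lrp1, Pltp and Pla2g7 as well. They also make Scarb1, negative above, and Lpl of the plasma list, which gave -0.049 (limma adjusted p = 0.977). These 5 genes were picked as macrophage products after their values were seen. The macrophage marker median was 0.26 in the same comparison, and the part of those cells was not tested.

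Of 22 transcription regulators of these genes 19 were kept, and 16 had a negative log2 fold change, against 55.4% of all 8815 genes. The median was -0.088 beside -0.012 for all genes, and it lay between -0.10 and -0.067 under 6 other scalings, where 15 or 16 were negative. Nr5a2, the nuclear receptor LRH-1, gave -0.29 (limma adjusted p = 0.155), with all 4 Mfn1 LKO livers below all 4 controls. A second Nr5a2 probe gave -0.12, and there the groups overlapped. Mlxipl, the gene of ChREBP, gave -0.20 (adjusted p = 0.377), the clock repressor Nr1d1 -0.27 (0.487, -0.17 by a second probe) and Nr2f2 -0.13 (0.557). Hnf4a, which encodes the main hepatocyte activator of apolipoprotein genes, gave 0.10 (adjusted p = 0.636), Ppara -0.090 (0.663) and Creb3l3, a known activator of Apoa4 in mice, -0.097 (0.698). The last 3, like P4hb, Apoc1 and Apoc4 above, were named for their known ties to the members, after their values were seen.

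**Figure D5:**
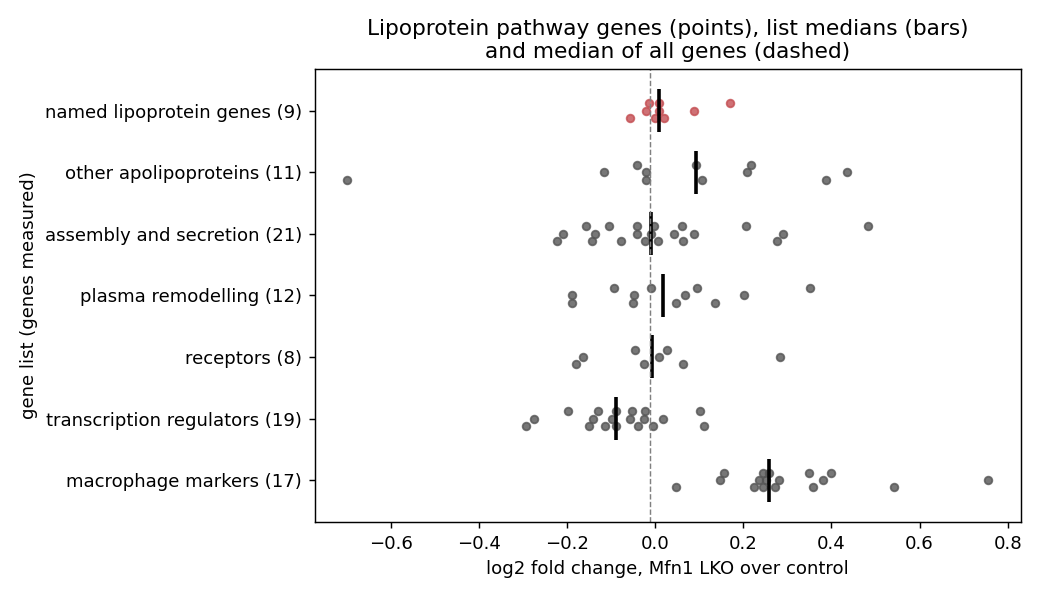
Log2 fold change (Mfn1 LKO over control) of each gene kept, 1 probe a gene, in the named lipoprotein genes (red), 5 lists of related genes and the macrophage markers (grey). Black bars are list medians, 0.0079 for the named genes, -0.088 for transcription regulators and 0.26 for macrophage markers, and the dashed line is the median of all genes.

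Of 11 genes that lie beside or within the chromosome 9 and 7 clusters 9 were kept, with a median log2 fold change of -0.021. Bud13, beyond Apoa5 on chromosome 9, gave -0.19 (limma adjusted p = 0.434). Nectin2 (0.13, 0.529, with -0.0025 and 0.059 by further probes) and Tomm40 (-0.075, 0.746), on the far side of Apoe, and Bcam (-0.054, 0.810) did not pass the test either. Median signals of Tomm40 and Bcam were 104.6 and 101.7, near the median of the arrays.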

How the data were processed

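Liver RNA was amplified and biotin-labelled (TotalPrep) before hybridisation, as the labels' protocols state. The deposited tables hold 1 signal intensity a probe, not normalized, and the authors' log2 values, which matched quantile normalized intensities. Scanner software is not given in the sources used here. Intensities were corrected with normexp (offset 50), quantile normalized and put on the log2 scale. A probe was kept when 4 or more of the 8 arrays read it above the array median. Groups came from the titles, and mouse numbers are not shared between groups, so no pairing exists, and neither slide nor date is given. The test was that of limma 3.58.1 (lmFit and eBayes, R 4.3.3), two-sided and Benjamini-Hochberg adjusted over all probes kept, with an adjusted p of 0.05 as the threshold. The fit was also run on simulated data, whose outcome is not given here and bears on no result for the members.

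Symbols came from GEO's platform annotation, and 9 of 9 measured genes matched RefSeq by gene ID. Members, lists and tests were chosen with earlier results of these data known. Named genes were the members, Mfn1, the 4 genes of each pathway list with the smallest p, and the 5 nearest profiles, and others are given as named after their values were seen. Hepatocyte, endothelial, stellate cell, enterocyte, neutrophil and lymphocyte marker lists had median log2 fold changes of 0.037, -0.0093, 0.029, 0.066, 0.13 and 0.084. The 12 alternative settings were no background correction, an offset of 16, a common median, cyclic loess, a common 75th percentile, the deposited log2 values, no filter, a filter on all 8 arrays, array weights, the brightest or the mean probe of each gene, and robust limma-trend. Each mouse was also left out in turn. Figures used matplotlib 3.10.9 (Python 3.11.15).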

Additional observations from a re-analysis of the deposited data

How the results depend on the processing

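No member passed the test under any of 12 other settings or with any of 8 mice left out, where the lowest adjusted p was 0.389 (limma, without Mfn1 LKO mouse 637). The settings with the brightest or the mean probe of each gene held 1 value for each of 9 genes. All other fits held the 11 probes. The number of probes past the threshold over the whole array was 2 in the reported fit, 1 with either the brightest probe or the mean of the probes of each gene, and 4 with limma-trend and robust estimation, and with 1 mouse left out it lay between 2 and 4 (4 without Mfn1 LKO mouse 701). Values near 0 changed sign, and the cause was not tested. Apoa1 gave -0.0021 with array weights, Apoa2 0.0051 with cyclic loess, Apoe 0.010 with a common median and 0.025 with cyclic loess, and Apoa5 -0.0049 and Mttp -0.020 with a common 75th percentile. With 1 mouse left out the log2 fold change lay between -0.024 and 0.042 for Apoa1, -0.047 and 0.010 for Apoa2, -0.24 and 0.57 for Apoa4, -0.039 and 0.071 for Apoa5, -0.052 and 0.016 for Apoe, -0.070 and 0.082 for Mttp, -0.097 and 0.0049 for the brighter Lcat probe and -0.081 and 0.0075 for the other. The median over the members, 0.0079 as reported, lay between -0.0049 (common 75th percentile) and 0.026 under other settings and was -0.0036 without Mfn1 LKO mouse 637. Of 216 repeated log2 fold changes of single probes 25 changed sign, all of differences that did not pass. No paired analysis was possible because the groups share no mouse numbers. The interval of Apoa4 reached 2.28-fold.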
